A study of Rattus norvegicus with 16 samples.

Results

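The 32 genes described here carry out, feed or control fatty acid oxidation in mitochondria and peroxisomes. They were chosen by name for their known function, with earlier results of these data known. Each was matched to a probe through the RefSeq accession of the array's probe list. All 32 were found among the 15284 genes that the array names, all 32 were among the 11849 genes that were tested, and all 32 were well above background on all 16 arrays. By role they are 11 enzymes of the mitochondrial β-oxidation cycle, 4 genes of the carnitine shuttle and fatty acid activation, 3 electron transfer flavoprotein genes, 6 peroxisomal genes, 2 acyl-CoA thioesterases, 2 genes of fatty acid uptake and binding, 3 regulators and the pyruvate dehydrogenase kinase gene Pdk4.

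RNA came from the outer medulla of the kidney of male Crl:CD Sprague-Dawley rats, 5 weeks old when dosing began. The rats received 2-amino-4-nitrophenol (ANP), a nitroaromatic hair dye component, at 750 mg/kg/day in corn oil, or corn oil alone as the vehicle, by gavage once a day. All groups, controls included, therefore received corn oil, a fat, every day. After 1 and 7 days, RNA of 3 animals per group was pooled on 1 array; after 14 and 28 days, 3 animals per group were measured on 1 array each.

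The proximal tubule of the kidney draws most of its energy from fatty acids. Acyl chains are activated to acyl-CoA, carried into mitochondria as carnitine esters and shortened in a repeated cycle of dehydrogenation, hydration, a second dehydrogenation and thiolysis, while peroxisomes shorten very long and branched chains first. The nuclear receptor PPARα drives many of these genes, the coactivator PGC-1α (Ppargc1a) supports mitochondrial gene expression, and CREB3L3 is a membrane-bound transcription factor of the endoplasmic reticulum known in the liver for controlling lipid genes together with PPARα. The straight (S3) proximal tubule and the thick ascending limb lie in the outer medulla, whereas podocytes and the convoluted (S1/S2) proximal tubule lie in the cortex.

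On each array 64.75% to 69.6% of probes were well above background, and replicate arrays correlated at r of 0.987 to 0.993 across genes. Precision is set by how few arrays there are per group. The outer medulla markers Slc7a13 (S3) and Umod (thick ascending limb) were well above background on all 16 arrays, but so was the podocyte gene Nphs1. Levels are given as log2 of the processed signal minus the 75th percentile of the array, so that 0 is the signal of that percentile. Levels of different genes come from different probes and are not compared. At day 28 the vehicle arrays lay on 1 slide and the ANP arrays on another, so slide and treatment cannot be told apart there; the day 14 vehicle arrays shared their slide with 1 of the 3 ANP arrays. In tissue RNA, fewer cells of a type and less RNA per cell cannot be told apart.

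After a single day of dosing the whole group of genes stood lower in the ANP pool. All 32 genes had a lower level than in the vehicle pool (54% of the 12413 genes compared did), with a median log2 ratio of -0.81 against -0.05 over the genes tested. Of the 32, 9 were at least 2-fold lower (4.95% of all genes) and 0 at least 2-fold higher (4.83%). These were the regulator Creb3l3, the peroxisomal genes Ehhadh, Pex11a and Crot, the auxiliary enzymes Eci1, Eci2 and Decr1, the acyl-CoA synthetase Acsl1 and the thioesterase Acot1. With 1 pool per group these ratios carry no error and no test.

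By day 7 the genes were spread around 0. The median log2 ratio was -0.04 over the 32 genes, 18 were below 0 (43.7% of all genes), and 0 of 32 reached 2-fold in either direction (2.12% of all genes higher, 2.53% lower). Pdk4, with -0.89, Fabp3, with -0.68, and Creb3l3, with -0.62, lay lowest. Cell markers also differed between the day 7 pools. Of 15 S1/S2 proximal tubule markers 14 were above 0 (median 0.43), with a summed level of 562 with ANP against 428 with vehicle. Of 14 macrophage markers 13 were below 0 (median -0.49), and 3 of 9 thin limb markers were at least 2-fold lower (median -0.76). Their part in the day 7 ratios was not tested.

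At day 14, the first day with 3 animals per group, 0 of the 32 genes passed an adjusted p of 0.05 in limma (0.363% of all genes higher, 0.118% lower). The log2 differences ranged from -1.59 for Creb3l3 to 0.53 for Ppara, 26 of 32 were below 0 (47.7% of all genes), and their median was -0.13 against 0.01 over all genes. In 5 genes (Hadh, Hadhb, Pex11a, Acot2 and Creb3l3) every ANP array lay below every vehicle array (7.92% of all genes), and in 0 every ANP array lay above (10.2%). At an unadjusted p under 0.05, 13.4% of all genes differed.

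At day 28, 4 of the 32 genes were lower with ANP than with vehicle (2.69% of all genes were) and 0 were higher (4.49%). Both counts are at an adjusted p under 0.05 in limma. For ANP, fell and rose mean such a difference on the same day and not a change over time. The 4 were Creb3l3, the peroxisome proliferation gene Pex11a and the mitochondrial enzymes Eci1 and Hadh. From day 14 to day 28 their mean ANP levels went from -1.59 to -0.96, 3.83 to 4.30, 4.515 to 5.077 and 6.46 to 6.69, which was not tested. Of the 32 differences 25 were below 0 (46.6% of all genes), with a median of -0.19 against 0.02 over all genes. In 11 genes every ANP array lay below every vehicle array (14.2% of all genes), and in 3, Acadm, Slc25a20 and Crot, every ANP array lay above (18.6%). For all genes the split was 532 higher and 319 lower; it was 773 and 244 after scaling each array to its median, with the same 4 members lower. The difference between the day 28 and day 14 effects passed for 0 members and 0 of 11849 genes in limma, with 9.27% of all genes at an unadjusted p under 0.05; it was below 0 for 17 of 32 members (47.4% of all genes).

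**Figure D1:**
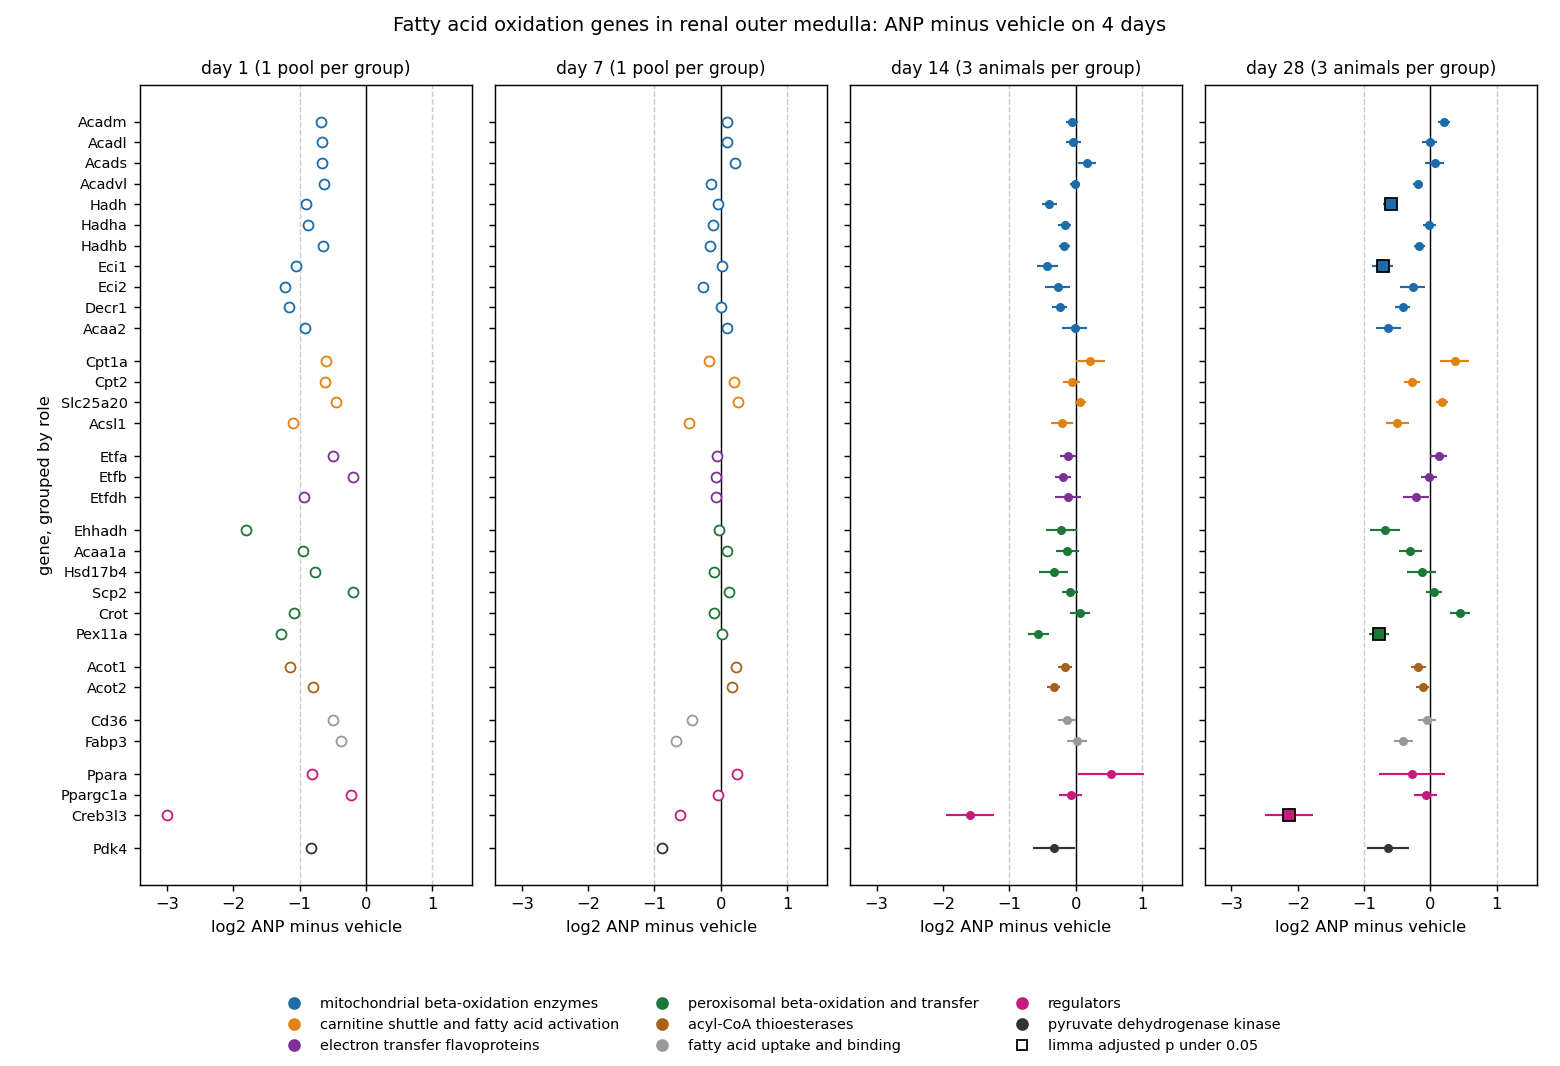
Log2 difference between ANP and vehicle (x axis) for each of the 32 genes (y axis, grouped and coloured by role) on 4 days. Open circles are ratios of 1 pool per group without error, filled symbols are limma estimates over 3 animals per group with bars of 1 SE, squares mark an adjusted p under 0.05, and dashed lines mark 2-fold. All 32 genes lie left of 0 at day 1, they scatter around 0 at day 7, and 4 squares (Hadh, Eci1, Pex11a, Creb3l3) lie left of 0 at day 28.

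Creb3l3 moved furthest of the 32 genes at days 1, 14 and 28. At day 1 its level was 2.75 in the vehicle pool and -0.25 in the ANP pool, an 8.01-fold difference. At day 7 the pools stood at 0.83 and 0.21. The vehicle pool of day 1 was thus the highest of the 8 vehicle arrays, and the ANP pool of that day lay inside their range of -0.71 to 2.75.

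At day 14 the vehicle animals had Creb3l3 levels of 0.58, 0.14 and -0.71, and the ANP animals -1.13, -1.71 and -1.92. The groups did not overlap, and the only ANP array on the vehicle slide, at -1.13, also lay below all 3 vehicle arrays. The log2 difference was -1.59 ± 0.37 (SE, n = 3 per group) with an adjusted p of 0.097 in limma. With slide as a fixed block it was -1.13. In that fit the difference rests on the 1 ANP array on the vehicle slide, so the fit had little to draw on.

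Creb3l3 levels at day 28 were 1.79, 0.90 and 0.83 with vehicle and -1.20, -1.14 and -0.55 with ANP, again without overlap. The log2 difference was -2.13 ± 0.37 (SE, n = 3 per group), 4.39-fold lower, with an adjusted p of 0.012 in limma. A second probe of the gene gave -1.76 at day 28 and -2.68 at day 1. Creb3l3 kept its call in all 6 fits that left out 1 of the day 28 arrays, with log2 differences from -1.83 to -2.34.

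The other regulators did not pass on either day. Ppara, which encodes PPARα, had log2 ratios of -0.82 at day 1 and 0.25 at day 7, and differences of 0.53 ± 0.50 (SE) at day 14 and -0.28 ± 0.50 (SE) at day 28, both with adjusted p of 0.715 or more in limma. Its vehicle animals of day 14 stood at -0.74, -2.52 and -2.40, the widest spread among them of any member, and its 2 probes gave like differences. Ppargc1a stayed within -0.22 and -0.04 in the 4 comparisons, with vehicle levels at day 28 of -0.84, -0.86 and -0.66 and ANP levels of -1.08, -0.86 and -0.64. The 95% interval of its day 28 difference ran from -0.47 to 0.32. The difference between the regulators was not tested.

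The sequences before the starts of the 4 genes that fell at day 28 are given here because they are the DNA on which PPARα or CREB3L3 could bind near the gene. They are the 250 bases upstream of the RefSeq start in the GRCr8 assembly, 5′ to 3′ on the strand of the gene: chr7:9273070-9273319 (plus strand), chr1:143096492-143096741 (minus), chr10:13961000-13961249 (plus) and chr2:222504447-222504696 (minus). Capitals mark matches to the nuclear receptor hexamer AGGTCA on either strand.
Creb3l3: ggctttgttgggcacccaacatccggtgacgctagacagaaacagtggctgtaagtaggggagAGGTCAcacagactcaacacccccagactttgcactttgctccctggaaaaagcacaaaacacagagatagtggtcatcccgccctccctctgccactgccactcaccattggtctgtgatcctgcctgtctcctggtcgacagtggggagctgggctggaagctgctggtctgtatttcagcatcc
Pex11a: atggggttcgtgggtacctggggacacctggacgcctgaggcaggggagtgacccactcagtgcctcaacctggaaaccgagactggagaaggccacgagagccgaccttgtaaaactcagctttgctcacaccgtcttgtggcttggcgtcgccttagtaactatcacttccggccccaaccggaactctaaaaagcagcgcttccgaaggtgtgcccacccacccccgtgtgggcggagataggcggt
Eci1: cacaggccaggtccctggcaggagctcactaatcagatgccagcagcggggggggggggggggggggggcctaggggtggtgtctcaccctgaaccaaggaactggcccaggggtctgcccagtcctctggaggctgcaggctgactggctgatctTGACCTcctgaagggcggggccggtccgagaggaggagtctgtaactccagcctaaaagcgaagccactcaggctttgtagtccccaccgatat
Hadh: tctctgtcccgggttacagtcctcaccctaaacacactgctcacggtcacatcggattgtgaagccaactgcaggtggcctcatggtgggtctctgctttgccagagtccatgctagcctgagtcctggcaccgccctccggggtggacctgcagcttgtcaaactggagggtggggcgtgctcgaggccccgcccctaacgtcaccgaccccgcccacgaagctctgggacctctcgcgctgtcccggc

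Creb3l3 held AGGTCA on its own strand from 187 to 182 bases upstream, and Eci1 held it on the opposite strand, from 94 to 89 bases upstream. Over the members, 29 of 32 had such a window in the table. The hexamer was found in 4 of the 29 (Creb3l3, Eci1, Acadvl and Hsd17b4) and in 12.5% of 21851 protein-coding promoters. The paired element AGGNCANAGGNCA, which contains the hexamer where N is T and to which PPARα binds with its partner, was found in 0 of 29 and in 0.32% of all. The cyclic AMP response element TGACGTCA was found in Acadm and Ppargc1a, 2 of 29, and in 1.89% of all. Both strands were searched. These counts describe letters in the windows and not binding.

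Among the 11 mitochondrial β-oxidation enzymes, the median log2 ratio was -0.88 at day 1 and 0.01 at day 7, and the median difference was -0.17 at day 14 and -0.19 at day 28. At day 28, 2 fell (2.69% of all genes did), 0 rose (4.49%) and 9 did not pass.

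Hadh encodes the short-chain 3-hydroxyacyl-CoA dehydrogenase, the second dehydrogenation of the cycle. Its level was 6.95 in the vehicle pool and 6.05 in the ANP pool at day 1, and 6.67 and 6.63 at day 7. At day 14 the vehicle animals stood at 6.99, 6.82 and 6.74 and the ANP animals at 6.54, 6.36 and 6.47, and at day 28 at 7.17, 7.46 and 7.23 against 6.90, 6.61 and 6.54. The groups did not overlap on either day. The log2 difference was -0.39 ± 0.12 (SE) with an adjusted p of 0.198 at day 14 and -0.60 ± 0.12 (SE, n = 3 per group) with an adjusted p of 0.020 at day 28 in limma, 1.52-fold lower. A second probe gave -0.64 at day 28. The day 28 call was lost without vehicle replicate 2 (adjusted p 0.079) or ANP replicate 2 (0.067), and in a fit of the 2 groups alone (0.064).

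Eci1 encodes an enoyl-CoA isomerase that prepares unsaturated chains for the cycle. The day 1 pools stood at 6.14 with vehicle and 5.09 with ANP, and the day 7 pools at 5.14 and 5.16. The vehicle pool of day 1 was the highest of the 8 vehicle arrays, and the ANP pool of that day lay within their range. At day 28 the vehicle animals had levels of 6.02, 5.84 and 5.53 and the ANP animals 5.14, 5.06 and 5.03, a clear gap. The log2 difference was -0.72 ± 0.16 (SE, n = 3 per group), 1.65-fold lower, with an adjusted p of 0.026 in limma. At day 14 it was -0.42 with overlapping groups. The day 28 call held in 1 of the 6 fits that left out an array of that day: it was lost without vehicle replicate 1 (adjusted p 0.093) or 2 (0.091) and without ANP replicate 1 (0.051), 2 (0.073) or 3 (0.053).

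Decr1 and Acaa2 came next at day 28 but did not pass. Decr1, the dienoyl-CoA reductase that also handles unsaturated chains, stood at 6.03, 5.95 and 5.88 with vehicle and 5.68, 5.44 and 5.48 with ANP, a log2 difference of -0.42 (adjusted p 0.052 in limma). Acaa2, the thiolase that ends each round, stood at 5.52, 5.54 and 5.27 against 5.14, 4.92 and 4.37, a difference of -0.63 (adjusted p 0.072). In both genes the groups did not overlap. Both passed under quantile normalization, with adjusted p of 0.008 for Decr1 and 0.019 for Acaa2.

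The acyl-CoA dehydrogenases, which open the cycle for chains of differing length, lay near 0 after day 1. At day 1 the log2 ratios of Acadm (medium chains), Acadl (long), Acads (short) and Acadvl (very long) were -0.67, -0.67, -0.66 and -0.64, and all 4 ANP levels were below all 8 vehicle arrays. At day 28 their differences were 0.20, -0.01, 0.06 and -0.19, with adjusted p of at least 0.144 in limma. At day 28 every ANP array lay above every vehicle array for Acadm and below for Acadvl. Acadvl passed as lower under quantile normalization, both without normexp (-0.29, adjusted p 0.034 in limma) and after it (-0.28, 0.034).

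Hadha and Hadhb, the subunits of the mitochondrial trifunctional protein, had log2 ratios of -0.88 and -0.65 at day 1 and differences of -0.02 and -0.17 at day 28. The isomerase Eci2 was 2.33-fold lower at day 1, and its differences were -0.27 at day 14 and -0.26 at day 28. None of the 3 passed on day 14 or 28.

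Of the 4 genes of the carnitine shuttle and activation, none passed at day 14 or 28. Acsl1, which activates long-chain fatty acids, stood at 5.59 with vehicle and 4.49 with ANP in the day 1 pools, and at 5.14 and 4.66 at day 7. At day 28 it was 5.19, 4.95 and 4.95 against 4.39, 4.31 and 4.89, a log2 difference of -0.50 (adjusted p 0.099 in limma), and its 3 other probes gave -0.58 to -0.67. Of the 6 fits that left out 1 array of that day, Acsl1 passed in the 1 without ANP replicate 3, the ANP array nearest to the vehicle animals (-0.68, adjusted p 0.035 in limma), and in none of the other 5. Cpt1a, the entry enzyme of the shuttle, had a difference of 0.37 (adjusted p 0.311), the carrier Slc25a20 one of 0.17 (0.237) and the inner membrane enzyme Cpt2 one of -0.28 (0.183). At day 1 all 4 vehicle pools were the highest of their 8 vehicle arrays.

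The electron transfer flavoproteins, which pass electrons from the dehydrogenases to the respiratory chain, had a median of -0.50 at day 1 and -0.02 at day 28. At day 1 Etfdh had a log2 ratio of -0.94, Etfa of -0.50 and Etfb of -0.19, and all 3 ANP levels lay below all 8 vehicle arrays. The day 28 differences were -0.22, 0.12 and -0.02, and none passed.

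The 6 peroxisomal genes had the lowest median of the multi-gene roles at day 1, -1.02. At day 7 it was 0.00, at day 14 -0.17 and at day 28 -0.22. All 6 ANP pool levels of day 1 were below all 8 vehicle arrays, as were 9 of the 11 mitochondrial enzymes. Over the 32 genes this held for 20, against 27% of all genes. The pools lay on a slide of their own, and vehicle pools of day 1 were the highest of the 8 vehicle arrays for 16 of 32 genes, against 12.8% of all genes.

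Ehhadh, the peroxisomal bifunctional enzyme and a classic PPARα target, stood at 3.51 with vehicle and 1.71 with ANP at day 1, 3.49-fold lower, and at 2.54 and 2.52 at day 7. At day 28 the vehicle animals had 3.35, 2.86 and 2.49 and the ANP animals 2.24, 1.90 and 2.51. The last ANP value overlapped the vehicle animals, and the log2 difference of -0.69 had an adjusted p of 0.096 in limma.

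Pex11a, a membrane protein of peroxisome division, was the peroxisomal gene that fell at day 28. Its pools stood at 5.03 with vehicle and 3.75 with ANP at day 1, and at 4.43 and 4.45 at day 7. At day 14 the vehicle animals had 4.44, 4.26 and 4.47 and the ANP animals 4.06, 3.87 and 3.56, and at day 28 they had 5.15, 5.29 and 4.80 against 4.30, 4.41 and 4.19. The groups were apart on both days. The log2 difference was -0.56 ± 0.15 (SE) with an adjusted p of 0.153 at day 14 and -0.78 ± 0.15 (SE, n = 3 per group) with an adjusted p of 0.018 at day 28 in limma. Its 2 other probes gave -0.87 and -0.81 at day 28. The call was lost without vehicle replicate 1 (adjusted p 0.068) or 2 (0.074).

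Crot, which moves shortened chains out of peroxisomes as carnitine esters, was lower at day 1, at 2.61 with ANP against 3.69 with vehicle. At day 28 it stood higher with ANP, at 3.65, 3.67 and 3.34 against 3.09, 3.20 and 3.04, without overlap. That difference, 0.45, had an adjusted p of 0.096 in limma. Hsd17b4 and Scp2, which serve very long and branched chains, had day 28 differences of -0.13 and 0.05.

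Acaa1a, the peroxisomal thiolase, is uncertain. The probe used here gave log2 ratios of -0.95 at day 1 and 0.09 at day 7 and differences of -0.13 at day 14 and -0.31 at day 28. Its 2 other probes gave 1.16 and 1.19 at day 7, 0.98 and 1.04 at day 14, and 0.51 and 0.63 at day 28. The near-identical gene Acaa1b had 1.27, 1.08 and 0.59 on those days, and its differences did not pass at day 14 (adjusted p 0.092 in limma) or day 28 (0.155). Which of the copies each probe measures was not tested.

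The thioesterases Acot1 and Acot2, near-identical copies whose probes may share signal, had log2 ratios of -1.14 and -0.79 at day 1. In Acot2 the day 14 groups did not overlap, with 3.53, 3.66 and 3.34 for vehicle and 3.28, 3.17 and 3.08 for ANP, but the difference of -0.33 had an adjusted p of 0.195 in limma. The day 28 differences were -0.18 and -0.12.

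Of the uptake and binding genes, the fatty acid transporter Cd36 had log2 ratios of -0.50 at day 1 and -0.44 at day 7, and differences of -0.13 and -0.05 at days 14 and 28. Fabp3, a cytoplasmic fatty acid binding protein, stood at 3.86 with vehicle and 3.18 with ANP at day 7. At day 28 it was 4.26, 4.05 and 3.89 against 3.79, 3.43 and 3.75, without overlap, a difference of -0.41 with an adjusted p of 0.106 in limma.

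Pdk4, which turns off pyruvate oxidation when fatty acids are burned, stood lower with ANP in all 4 comparisons, with log2 ratios of -0.83 and -0.89 in the pools and differences of -0.33 and -0.64 at days 14 and 28. On the last day the ANP animals had -4.31, -4.73 and -3.50 and the vehicle animals -2.95, -3.95 and -3.71, which overlap. Its adjusted p was 0.726 and 0.224 in limma.

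**Figure D2:**
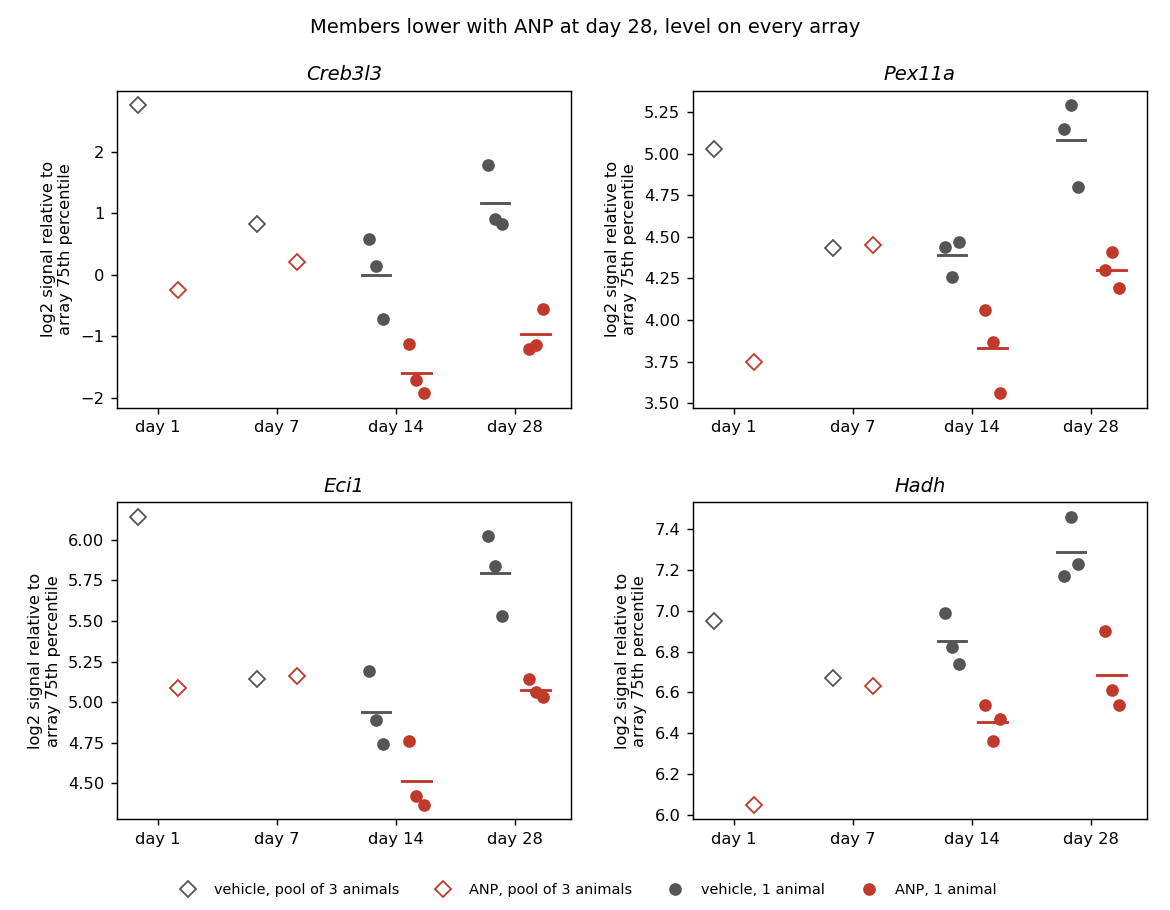
Log2 level relative to the 75th percentile of the array (y axis) of the 4 genes lower at day 28, on each of the 16 arrays by day (x axis). Grey is vehicle and red is ANP, open diamonds are pools of 3 animals, filled circles are single animals and bars are means of 3. For Creb3l3 the vehicle pool of day 1 stands at 2.75, and at day 28 all 3 ANP animals lie below 0 and all 3 vehicle animals above.

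The vehicle groups themselves differed between days. The day 14 vehicle arrays lay on 1 slide and the day 28 vehicle arrays on another, so day and slide cannot be told apart here. From day 14 to day 28, 6 of the 32 genes were higher in vehicle animals (6.99% of all genes), Acaa2 by 1.10, Eci1 by 0.86, Fabp3 by 0.71, Pex11a by 0.69, Cpt2 by 0.45 and Hadh by 0.44 on the log2 scale. Cd36 was lower by 0.47 (4.16% of all genes were lower). The largest adjusted p among the 7 was 0.049 in limma. Creb3l3 differed by 1.16, with an adjusted p of 0.068. Ehhadh differed by 0.79 (adjusted p 0.053) and Ppara by 1.07 (0.207). The median over the 32 genes was 0.21 against 0.01 over all genes, and 9 of 32 were below 0 (49.1% of all genes). Every day 28 vehicle array lay above every day 14 one in 13 genes (18.7% of all genes) and below in 3 (15.9%). Of the 4 genes lower with ANP at day 28, 3 were among the 6 that were higher in the day 28 vehicle animals. The comparisons share those animals. With slide as a fixed block 0 of the 32 vehicle differences passed, as did 0 of all 11849 genes. Only the day 14 ANP arrays link those slides, so that fit had little to draw on and cannot separate day from slide. With slide as a random block 9 members were higher and 1 was lower.

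Markers of cortical cells moved with the same groups. The S1/S2 proximal tubule markers had a median difference of -0.73 at day 14 and -0.72 at day 28, with 14 of 15 below 0 each time, and of 1.61 between the vehicle groups, with 14 of 15 above 0. At day 28, 1 of the 15 fell (Lrp2) and 1 rose (Slc22a12). The podocyte markers had medians of -0.57, -0.94 and 1.75, with 11, 10 and 0 of 11 below 0, and 5 of 11 fell at day 28. Nphs1, which makes the podocyte slit, stood at 0.84, 0.65 and 0.31 in the day 28 vehicle animals and at -1.34, -0.53 and -0.31 in the ANP animals.

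The summed linear level of the S1/S2 markers was 318 to 663 in vehicle and 298 to 416 in ANP animals at day 14, and 859 to 1030 against 615 to 732 at day 28. The summed podocyte level was 19.9 to 24.3 against 16.3 to 18.9 at day 14, and 40.8 to 50.7 against 24 to 27.9 at day 28. At day 28 neither sum overlapped between the groups. The collecting duct markers had a median of -0.64 at day 28 with 12 of 13 below 0, of which 4 fell. The S3 markers had medians of -0.15 and 0.12 at days 14 and 28, and 4 of 16 rose at day 28 (Slc22a7, Slc22a24, Gstp1 and Mep1b). For other medullary segments the medians at day 28 were above 0. Differences were above 0 for 8 of 9 thin limb and inner medulla markers (median 0.72) and for 9 of 12 thick ascending limb markers (median 0.21). None of these markers rose by the test.

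When the mean level of the podocyte markers on each array was added to the fit, 0 of the 32 genes passed at day 28. Of all 11849 genes 12 then passed as higher and 0 as lower. Creb3l3 then had a difference of -0.95 (adjusted p 0.303 in limma), Pex11a -0.54 (0.346), Hadh -0.51 (0.294) and Eci1 -0.28 (0.526). In this fit 21 of 32 members were below 0 (47.7% of all genes). With the S1/S2 markers in its place, Creb3l3 had -1.48 (0.055), Pex11a -0.68 (0.089), Hadh -0.46 (0.0997) and Eci1 -0.43 (0.114). Again 0 members passed, with 21 of 32 below 0 (46.4% of all genes). Of all genes 235 then passed as higher and 61 as lower. The covariate was the mean log2 level of the markers. At day 28 the summed linear levels of both marker sets separated the groups. Median log2 levels did so for the podocyte markers but overlapped for the S1/S2 markers (4.25 to 4.78 with vehicle, 3.73 to 4.34 with ANP). Marker level and treatment thus largely went together, so these fits had little overlap between them to draw on.

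**Figure D3:**
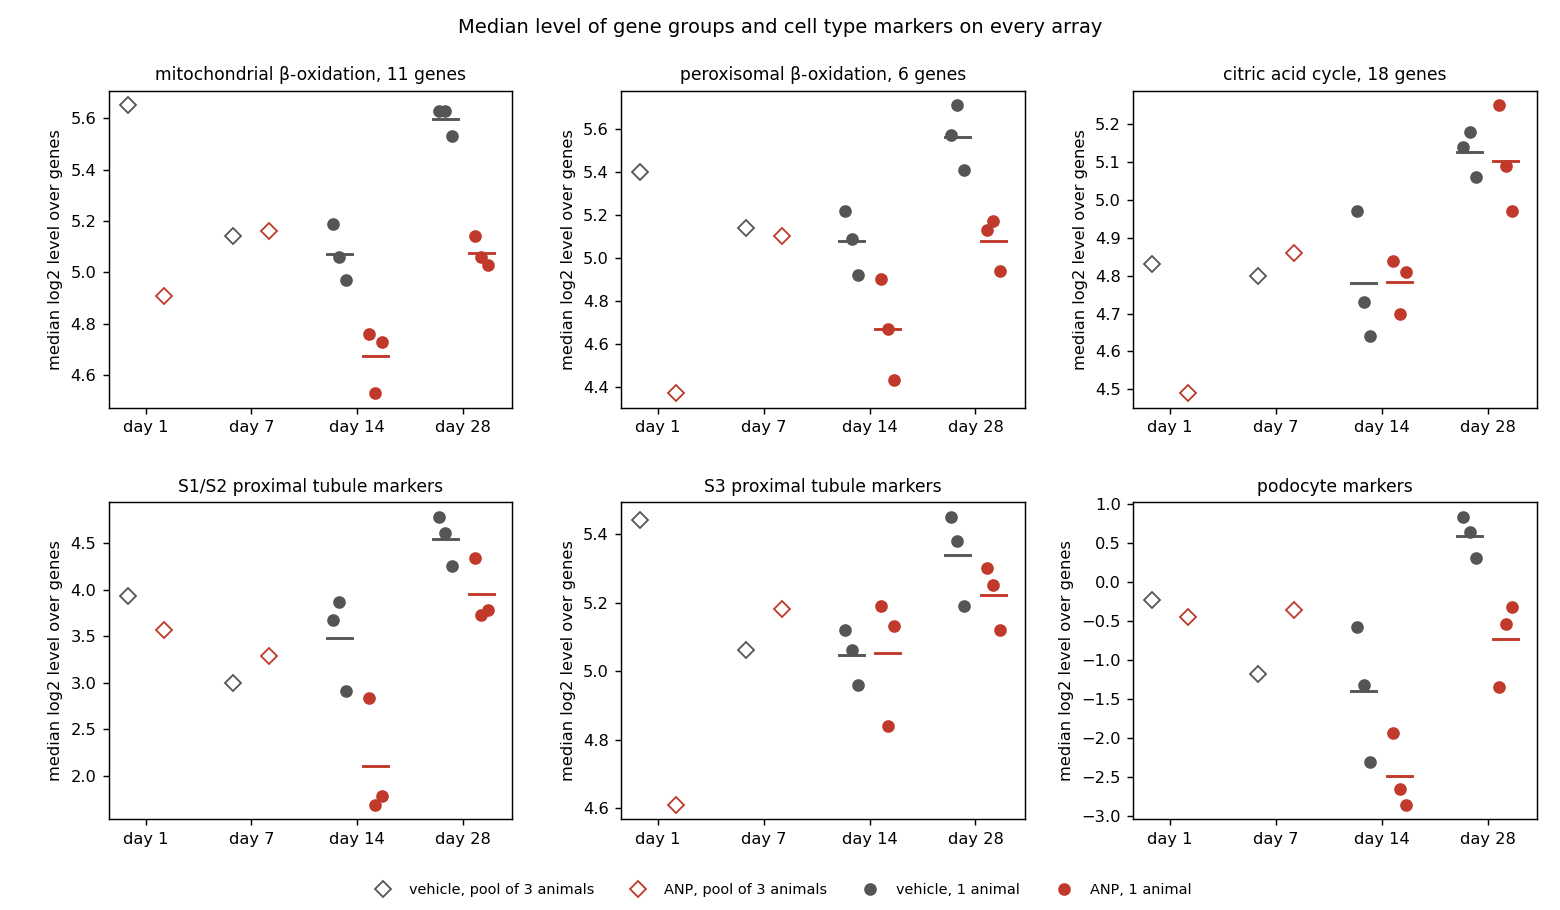
Median log2 level over the genes of a group (y axis) on each of the 16 arrays by day (x axis), for mitochondrial and peroxisomal β-oxidation, the citric acid cycle and 3 sets of cell type markers. Grey is vehicle, red is ANP, open diamonds are pools of 3 animals, circles are single animals and bars are means of 3. Each point is the level of the gene or genes in the middle of the group, so it can follow a single gene. The mitochondrial median is 5.65 and 4.91 in the day 1 pools and does not overlap at days 14 and 28. Its 3 ANP points of day 28 are the levels of Eci1. Taken per gene against the vehicle mean of the day, the enzyme medians meet at day 28, at -0.07 in 1 vehicle and 1 ANP animal. The podocyte points are the levels of Nphs1 and are above 0 only in the 3 vehicle animals of day 28. The citric acid cycle groups overlap at days 14 and 28.

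At day 1 other cell markers moved too. Of the S3 markers 8 of 16 were at least 2-fold lower and 1 at least 2-fold higher, with a median of -1.01 and a summed level of 1060 with ANP against 1560 with vehicle. The S1/S2 sum was 449 against 584 and the podocyte sum 30.9 against 36. Of the adipocyte markers 5 of 11 were at least 2-fold higher, among them Cidea and Ucp1, and 4 of 11 were below 0. The summed level of the 11 was 119 with ANP against 122 with vehicle. The part of these cells in the day 1 ratios was not tested.

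Other genes of the same pathways are given by list; at day 28, 2.69% of all genes fell and 4.49% rose. The 18 citric acid cycle enzymes had a median of -0.30 at day 1, with 16 below 0 and 0 reaching 2-fold lower, and 0 passed at day 14 or day 28. Of 27 other mitochondrial acyl-CoA enzymes, 23 were below 0 at day 1, and at day 28, 3 fell and 1 rose. Of the other peroxisomal genes, 44 of 49 were below 0 at day 1, and 1 of 48 fell and 3 rose at day 28. Of 24 other PPAR target genes 3 fell and 1 rose, and of 14 CREB3L3 target and lipoprotein genes 0 passed at day 28. That last list also named relatives of Creb3l3 itself, so it is not made of targets alone. At day 14, 12 of the 14 were below 0 (47.7% of all genes, list median -0.23) and 0 passed. At day 28, 6 of the 14 were below 0 (46.6% of all genes, list median 0.09).

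Slc22a5, the carnitine transporter of the plasma membrane, fell from 2.15, 2.26 and 2.08 with vehicle to 1.24, 1.27 and 0.96 with ANP at day 28. The difference was -1.01 ± 0.13 (SE) with an adjusted p of 0.005 in limma. At day 1 it was 2.09-fold lower, and the later vehicle group was 0.99 higher than the earlier one. Vnn1, a pantetheinase that PPARα induces, fell by 1.36 at day 28 (adjusted p 0.011), and the fatty acid transport protein Slc27a1 fell by 0.40 (0.028).

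Pparg, the nuclear receptor best known from fat cells, was higher with ANP than with vehicle at day 28. It stood at -1.79, -1.95 and -1.47 with vehicle and -0.40, -0.74 and -0.41 with ANP at day 28, a difference of 1.22 ± 0.16 (SE) with an adjusted p of 0.005 in limma. Vehicle animals had -0.73, -0.67 and -0.35 at day 14, so the later vehicle group was 1.16 lower. The ANP animals of day 14 had -0.30, -0.43 and -0.08. Of 11 adipocyte markers, 2 rose at day 28 (Cidea by 1.24 and Dgat2 by 0.47), with a median of 0.21; their part in the Pparg difference was not tested.

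With the S1/S2 marker level in the fit Slc22a5 and Pparg passed, with adjusted p of 0.027 and 0.028 in limma. With the podocyte marker level neither did, at 0.133 each.

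**Figure D4:**
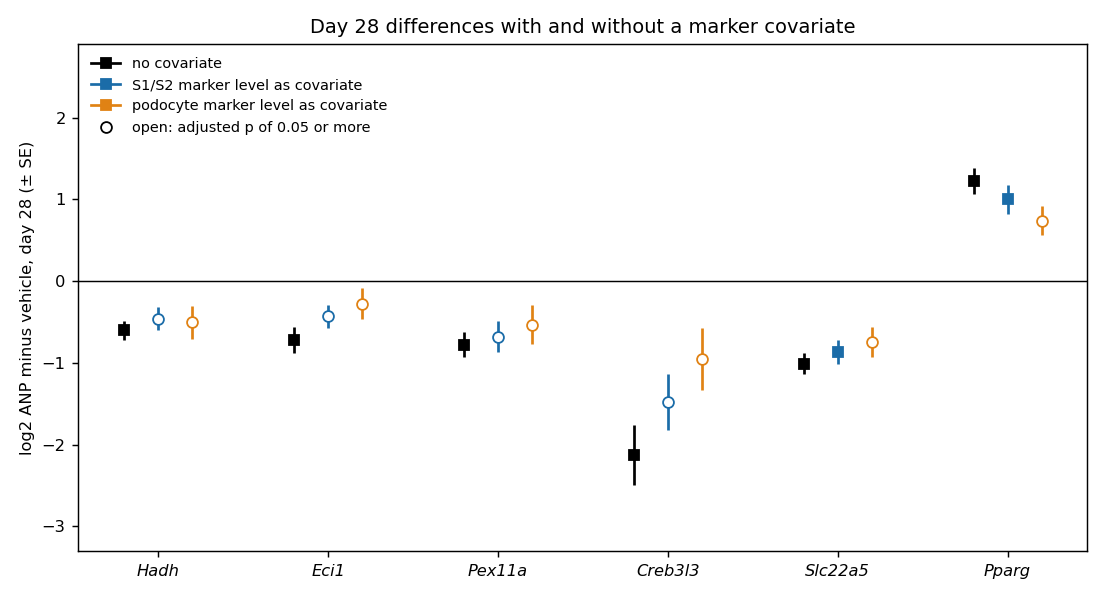
Log2 difference between ANP and vehicle at day 28 (y axis, bars of 1 SE) for the 4 members that passed and for Slc22a5 and Pparg (x axis), without a covariate (black), with the S1/S2 marker level (blue) and with the podocyte marker level (orange) of each array. Filled squares have an adjusted p under 0.05 in limma and open circles do not; Creb3l3 goes from -2.13 to -1.48 and -0.95, and every estimate keeps its sign.

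Further genes of these lists also passed at day 28. Acss1, which activates acetate in mitochondria, fell by 0.63 and the acyl-CoA synthetase Acsl3 fell by 0.32, whereas its relative Acsl5 rose by 0.50. Hao1, a peroxisomal oxidase, fell by 0.78, and the peroxisome assembly genes Pex2 and Pex26 rose by 0.37 and 0.43. The malic enzyme gene Me1 rose by 0.73, and Prkaa2, a catalytic subunit of the energy sensor AMPK, fell by 0.44. Their adjusted p in limma ran up to 0.048.

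Among the peroxisomal and PPAR target genes Ech1, a dienoyl-CoA isomerase, was 2.81-fold lower at day 1, and the fatty acid hydroxylase Cyp4a1 2.09-fold lower. Plin2, which coats lipid droplets, was 3.34-fold higher at day 1, at 5.83 with ANP against 4.09 with vehicle. Angptl4, a lipase inhibitor, had ratios of -0.95 at day 1 and -0.63 at day 7. At day 28 their differences were -0.21 for Ech1, -0.80 for Cyp4a1, -0.56 for Plin2 and -0.51 for Angptl4, and none passed.

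Hnf4a, a proximal tubule and liver transcription factor, stood at 0.44 and -0.64 in the vehicle and ANP pools of day 1 and at 0.14 and 1.25 in those of day 7. Its day 28 difference of 0.69 had an adjusted p of 0.105 in limma. The receptors Ppard and Rxra had day 28 differences of -0.39 and -0.41 and Esrra one of 0.17, none of which passed. The peroxisomal catalase gene Cat, with 0.14, and the branched-chain dehydrogenase Acadsb, with -0.05, lay near 0. Among CREB3L3 targets Apoa4, an apolipoprotein, had -0.48 (adjusted p 0.400), and the hormone gene Fgf21, well above background on 10 of 16 arrays, had 1.41 (0.064).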

How the data were processed

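Renal outer medulla RNA was hybridised to 16 one-colour (Cy3) Agilent arrays. The submitters' processing notes name Feature Extraction 10.7. The scanner files deposited by the authors give a processed signal intensity for every spot, on a linear scale and already background-subtracted per the file headers. A separate value table of the authors is a ratio, which matched that signal divided by the 75th percentile of its array. The array's genome build is not given in the sources used here; symbols and promoter windows are RefSeq's, on GRCr8.

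Each array's log2 intensity, less its 75th percentile, was used for 61657 probes. Between 0 and 9 outlier spots an array were dropped; 0 were saturated. Unversioned accessions gave a symbol to 27460 probes (93.9% of NM accessions matched). The brightest probe on the arrays of days 14 and 28 stood for its gene. Genes entered the test when at least 1 of the 4 groups of those days had every array well above background. The test was limma 3.58.1 (R 4.3.3) on 12 arrays with a mean for each group, with Benjamini-Hochberg adjustment across 11849 genes and a threshold of 0.05, and it was tested on simulated data. A fold is 2 to the power of the absolute log2 difference; pools were called at 2-fold. Members, lists, marker sets and a panel of 16 other genes were chosen with earlier results of these data known. The rule named the members, the panel and up to 6 genes per list and direction past the threshold; of the last, those of day 28 are given. Acaa1b was added as the copy of Acaa1a. Some genes that the rule names are not reported here. Replicate numbers were not taken as pairs in the main fit. After each group's mean was subtracted, same-numbered vehicle and ANP arrays correlated at -0.07 to 0.14 within days 14 and 28. Differently numbered arrays were not compared in this way.

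Alternatives were scaling to the median, quantile normalization, normexp (offset 50) followed by quantile normalization, and the value table. Others were other filters, the mean of all probes, replicate and slide blocks, fits of 2 groups alone and leaving out each array. Where only normexp is named, quantile normalization followed it. The marker covariates, and slide as a fixed block for the vehicle comparison, were chosen after seeing the data.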

Additional observations from a re-analysis of the deposited data

Results flagged for a closer look

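Acadm, the medium-chain acyl-CoA dehydrogenase gene, stood out because all 3 ANP animals of day 14 were below the vehicle mean of that day, whereas all 3 ANP animals of day 28 were above theirs. The vehicle animals had levels of 6.77, 7.05 and 6.86 at day 14 and 6.70, 6.65 and 6.83 at day 28. The ANP animals had 6.89, 6.75 and 6.88, then 6.84, 7.01 and 6.94. The day 28 effect minus the day 14 effect was 0.26 on the log2 scale, with an adjusted p of 0.571 in limma, so the days were not shown to differ.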

How the results depend on the processing

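No member changed sign among the called values, and 0 members passed for the difference between the effects of the days, under the alternatives run. At day 14 the count lower was 0 in every alternative except normexp with quantile normalization, where it was 1 (Hadh). At day 28 the count lower, 4 as reported, was 7 under quantile normalization, 7 under normexp and 9 with slide as a random block, whose estimated correlation was -0.09, and 0 with either the podocyte or the S1/S2 marker level as a covariate. The count higher at day 28 was 1 under normexp (Slc25a20) and 1 with slide as a random block (Crot), and 0 otherwise. Leaving out 1 array at a time gave 1 to 4 genes lower at day 28. The fewest, 1, came without vehicle replicate 2; 2 came without vehicle replicate 1 and 2 without ANP replicate 2. Decr1 and Acaa2 made the count 6 with the replicate number as a block. That block moved the vehicle count lower from 1 to 0 and changed no other count of members by over 1.5 times; over all genes it moved the day 14 count higher from 43 to 23.

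Between the vehicle groups the count higher, 6 as reported, was 3 in a fit of the 2 groups alone and 0 with slide as a fixed block or either marker covariate, and leaving out 1 array gave 2 to 9. It was 2 without day 28 vehicle replicate 1 or 2 and 3 without day 14 vehicle replicate 2. The count lower, 1 (Cd36), was 0 under scaling to the median, no filter, the mean of all probes, slide as a fixed block, the 2 groups alone and either covariate, and 0 to 1 leaving out 1 array. With slide as a random block the counts were 9 and 1. The cause of these shifts was not tested. Over all genes, day 28 calls were 532 higher and 319 lower, 1098 and 761 with slide as a random block, 675 and 571 under normexp, 216 and 215 in the 2 groups alone, 235 and 61 with the S1/S2 covariate, 12 and 0 with the podocyte covariate, and 146 to 488 and 62 to 271 leaving out 1 array. At day 14, 43 genes higher and 14 lower ranged over the alternatives from 0 to 88 and from 0 to 50, and between the vehicle groups 828 and 493 ranged from 0 to 1258 and from 0 to 945. In the day 1 pools 8 to 9 members were at least 2-fold lower in each alternative, and in the day 7 pools 0.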
